A study of Homo sapiens with 6 samples.

Results

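The genes described here are ACKR3, CXCR4 and a group of CXC chemokines with their receptor CXCR3, read in the established colorectal cancer line COLO-320DM after its cells had been sorted by the surface marker CD44. The members were all probe sets annotated with the single symbol of ACKR3, CXCR4, CXCL12, CXCL11, CXCL1, CXCL2, CXCL8, CXCL14, CXCL16 or CXCR3, dim probe sets included. They came to 22 probe sets of 10 genes, out of 54613 probe sets and 19775 named genes in all. The genes were selected on their family with the differences between the sorts in these arrays already known. Those differences are therefore descriptions, and the intervals and counts of calls that limma, the linear model used, gives for them stand as such and support nothing. Total RNA of untreated cells was hybridised to Affymetrix arrays, 3 of CD44-positive and 3 of CD44-negative cells. Both groups came from the same cell line, and their arrays carry the numbers 01, 02 and 03. Being from 1 line, they carry no spread between donors, and how the sort gates were set is not known here.

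Chemokines are small secreted proteins that direct cell movement by binding G-protein-coupled receptors on the cell surface. CXCR4 is the classical receptor of CXCL12 and signals through inhibitory G proteins. ACKR3, formerly CXCR7, binds CXCL12 and CXCL11 but couples to arrestins rather than G proteins, and removes its ligands from the surroundings by internalising them. In colorectal cancer the CXCL12 receptors are known for their link to spread to the liver and lung, and CXCL1, CXCL2 and CXCL8 for drawing in neutrophils through CXCR1 and CXCR2.

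CXCL11, CXCL1, CXCL2 and CXCL8 lie on chromosome 4, and their upstream sequences are shown because all 4 hold the same short motif. RefSeq (GRCh38.p14) held a promoter window for 8 of the 10 genes, all but ACKR3 and CXCL16. Each sequence gives the 250 bases before the annotated start, 5′ to 3′ on the strand of the gene. Capitals mark GGAATTTCC or, on the opposite strand, GGAAATTCC, a form of the motif that NF-kappaB factors bind.
CXCL11, chr4:76036071-76036320, minus strand: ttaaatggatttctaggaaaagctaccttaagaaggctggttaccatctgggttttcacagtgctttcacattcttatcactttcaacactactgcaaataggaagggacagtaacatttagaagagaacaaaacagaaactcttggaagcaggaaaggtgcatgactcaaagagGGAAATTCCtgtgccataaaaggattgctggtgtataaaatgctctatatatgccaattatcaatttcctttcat
CXCL1, chr4:73869143-73869392, plus strand: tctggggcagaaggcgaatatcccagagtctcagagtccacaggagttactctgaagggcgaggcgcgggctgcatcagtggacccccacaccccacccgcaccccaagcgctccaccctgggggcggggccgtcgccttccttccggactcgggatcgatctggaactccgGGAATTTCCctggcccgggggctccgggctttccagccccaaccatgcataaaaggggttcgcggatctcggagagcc
CXCL2, chr4:74099196-74099445, minus strand: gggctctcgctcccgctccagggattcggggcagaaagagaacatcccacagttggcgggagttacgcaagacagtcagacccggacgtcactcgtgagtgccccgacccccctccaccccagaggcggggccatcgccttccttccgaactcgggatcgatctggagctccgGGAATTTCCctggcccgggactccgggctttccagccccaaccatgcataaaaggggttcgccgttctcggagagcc
CXCL8, chr4:73740319-73740568, plus strand: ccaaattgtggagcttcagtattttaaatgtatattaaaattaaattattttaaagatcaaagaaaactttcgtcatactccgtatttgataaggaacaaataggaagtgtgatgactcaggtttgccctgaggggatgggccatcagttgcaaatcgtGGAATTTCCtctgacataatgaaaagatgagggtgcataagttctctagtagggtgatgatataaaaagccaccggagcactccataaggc
The motif stood 75 bases before the start of CXCL11, in reverse orientation, and 78, 77 and 91 bases before the starts of CXCL1, CXCL2 and CXCL8. It was chosen after these sequences had been read, was searched on both strands and occurred in 0.413% of all 35116 windows of this length. None of the windows of CXCR4, CXCL12, CXCL14 or CXCR3 held it. CXCL1 and CXCL2 shared an identical run of 42 bases across their windows, and such close paralogs can be hard to separate by hybridisation as well. The core of the interferon-stimulated response element was searched in the same way and occurred in none of the windows of the 8 genes, and in 3.02% of all windows. A match of letters, or the lack of one, does not show whether a factor binds there.

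Signal over background set what could be seen. All levels are log2 of the deposited intensity. A probe set was called dim where its mean over the 6 arrays lay under 5.12, the 30th percentile of gene means. Of the 22 probe sets 8 were not dim, and they belonged to ACKR3, CXCR4, CXCL11, CXCL16 and CXCR3. The 14 dim ones included every probe set of CXCL12, CXCL1, CXCL2, CXCL8 and CXCL14. The arrays had median intensities from 44.9 to 46.5 and correlated at 0.991 to 0.997. The sort marker CD44 averaged 7.70 ± 0.52 in its positive and 5.23 ± 0.22 in its negative group (SD, n = 3). Of the colon epithelial markers, EPCAM, KRT19 and CDH1 were dim, while KRT8, KRT18, KRT20, VIL1 and CDX2 were not. Whether the replicates were separate cultures is not stated in the labels, so p-values here reflect only array-to-array spread, possibly technical.

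**Figure D1:**
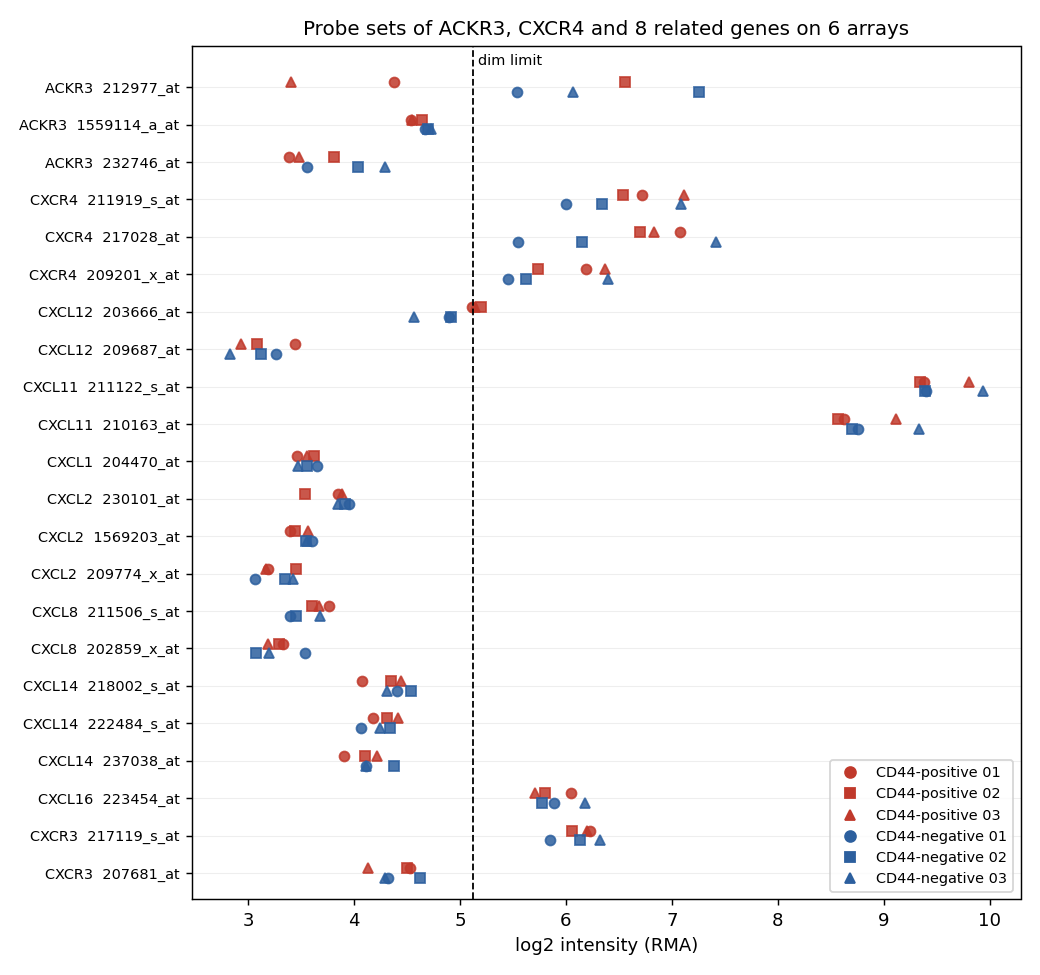
Log2 intensity (horizontal axis) of the 22 probe sets on each of the 6 arrays, with CD44-positive arrays in red, CD44-negative arrays in blue and the replicate number as the marker shape. The dashed line is the dim limit of 5.12. The arrays of ACKR3 212977_at spread from 3.40 to 7.26, and both CXCL11 probe sets set the triangles of arrays 03 above the others.

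ACKR3 was the member with the largest difference between the sorts. Its leading probe set, 212977_at, read 4.38, 6.55 and 3.40 in CD44-positive arrays 01, 02 and 03 and 5.54, 7.26 and 6.06 in the CD44-negative arrays of the same numbers. The CD44-positive array was the lower in each pair, but the groups overlapped, because CD44-positive array 02 lay above CD44-negative arrays 01 and 03. The means were 4.78 ± 1.61 and 6.29 ± 0.88 (SD, n = 3), a difference (CD44-positive minus CD44-negative, as throughout) of -1.51 ± 0.73 (SE, 95% interval -3.16 to 0.14, or -2.21 to -0.81 with the replicate block), or 2.85-fold lower. Within pairs the differences were -1.16, -0.70 and -2.66. CD44-positive arrays 01 and 03 were below the dim limit, and RMA compresses differences there. Leaving out CD44-positive array 03 brought the difference to -0.82, and leaving out CD44-positive array 02 to -2.40. Array weights, which give the more variable arrays less influence, brought it to -0.87, and the mean of all 3 ACKR3 probe sets was -0.68. In a bulk sample, fewer cells with the transcript and less of it per cell cannot be told apart.

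The other ACKR3 probe sets were dim on every array. 232746_at read 3.39, 3.81 and 3.48 in the CD44-positive and 3.56, 4.03 and 4.29 in the CD44-negative arrays, a difference of -0.40 ± 0.19 (SE). 1559114_a_at read 4.54, 4.64 and 4.54 against 4.67, 4.70 and 4.73, a difference of -0.13 ± 0.09 (SE), and here every CD44-positive array lay below every CD44-negative array. All 3 probe sets of ACKR3 were therefore lower in 3 of 3 pairs, by amounts that differed widely between them. Some epithelial markers also differed in each pair: EPCAM, an adhesion molecule, by -0.47 ± 0.15 and KRT20, a keratin of mature colon cells, by 0.63 ± 0.17 (SE), both without overlap, and KRT19 by -0.27 ± 0.12. limma called none of the 8 epithelial markers, whose mean level ran from 6.95 to 7.03 in the CD44-positive and from 7.01 to 7.07 in the CD44-negative arrays, and their part in the ACKR3 difference was not tested.

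CXCR4, the signalling receptor for CXCL12, had 3 probe sets above the dim limit, and its mean was higher in the CD44-positive cells in each. The leading one, 211919_s_at, read 6.72, 6.54 and 7.12 in the CD44-positive and 6.0, 6.34 and 7.08 in the CD44-negative arrays. The groups overlapped, and the gap was 0.72 in pair 01, 0.20 in pair 02 and 0.033 in pair 03. The means were 6.79 ± 0.30 and 6.47 ± 0.56 (SD, n = 3), a difference of 0.32 ± 0.26 (SE, 95% interval -0.28 to 0.91, or 0.021 to 0.62 with the block). On 217028_at the pairs differed by 1.53, 0.55 and -0.59, so that CD44-negative array 03, at 7.42, was the highest of all. On 209201_x_at, whose suffix marks probes that may hybridise to other transcripts, they differed by 0.73, 0.11 and -0.026. Pair 01 thus held most of the CXCR4 difference in all 3 probe sets, and leaving out CD44-negative array 03 raised it to 0.63 on the leading one. It was 0.083 without CD44-negative array 01.

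**Figure D2:**
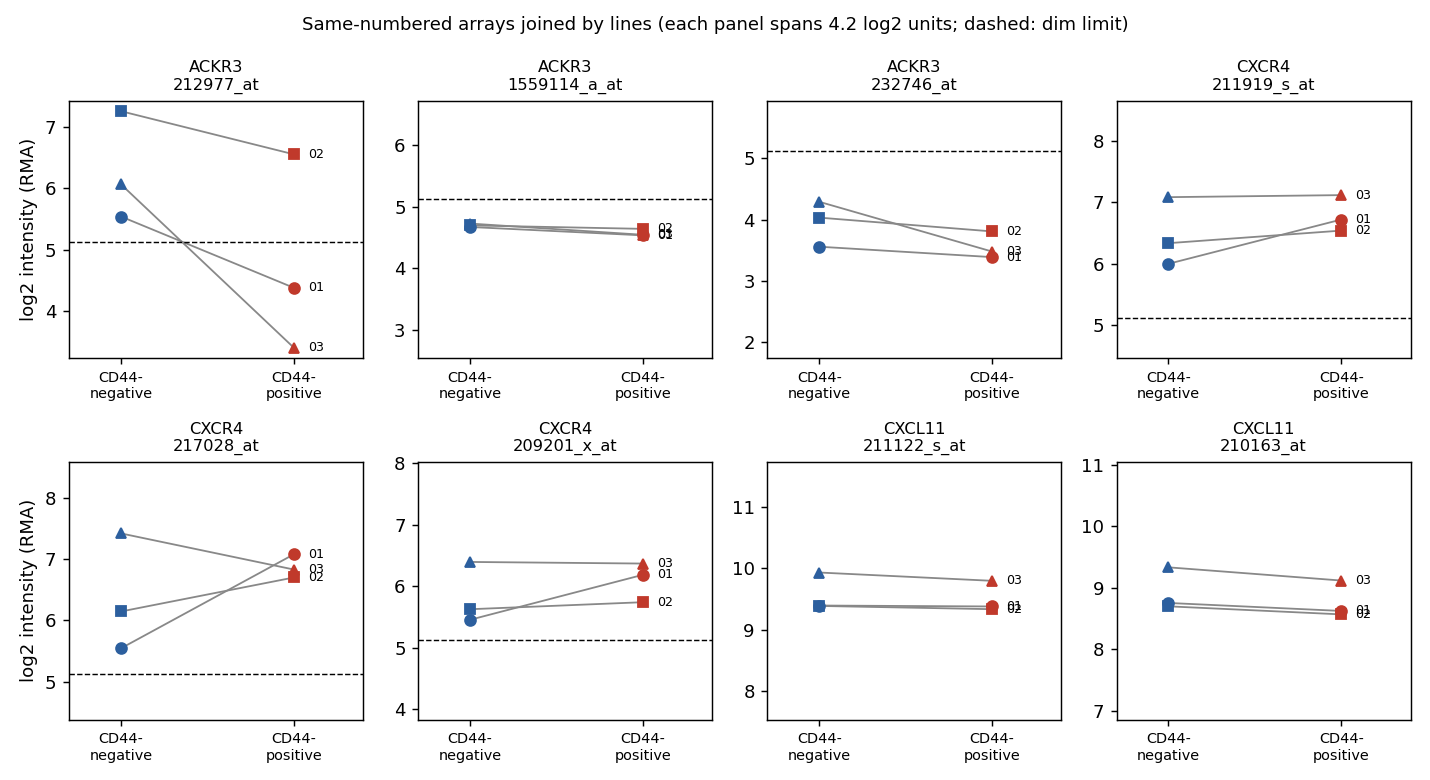
Log2 intensity of the ACKR3, CXCR4 and CXCL11 probe sets in the CD44-negative (blue) and CD44-positive (red) arrays, with same-numbered arrays joined by a line and the dim limit dashed; all panels span the same number of log2 units. Lines fall in all pairs for ACKR3 212977_at, rise by 0.72 in pair 01 and 0.033 in pair 03 for CXCR4 211919_s_at, and are nearly flat for CXCL11.

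CXCL11, an interferon-inducible ligand of CXCR3 and ACKR3, was well above the dim limit on every array and differed little between the sorts. 211122_s_at read 9.38, 9.34 and 9.80 in the CD44-positive and 9.40, 9.39 and 9.93 in the CD44-negative arrays. The difference was -0.068 ± 0.18 (SE, 95% interval -0.48 to 0.34), and that of 210163_at -0.16 ± 0.20 (-0.62 to 0.30). Both probe sets were lower in the CD44-positive array of every pair, by 0.015 to 0.22. ART3, a gene whose RefSeq span overlaps that of CXCL11, was dim, from 2.44 to 2.70.

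CXCL12, the ligand shared by CXCR4 and ACKR3, was dim on average. 203666_at read 5.12, 5.20 and 5.14 in the CD44-positive and 4.90, 4.92 and 4.57 in the CD44-negative arrays, and every CD44-positive array lay above every CD44-negative array. The means were 5.15 ± 0.04 and 4.79 ± 0.20 (SD, n = 3), a difference of 0.36 ± 0.12 (SE, 95% interval 0.092 to 0.62, or 0.13 to 0.58 with the block). 209687_at, lower still, differed by 0.083 ± 0.16 (SE) and its groups overlapped. CXCL12 is typically made by stromal cells, so the 10 fibroblast and stromal markers were read beside it. Of these, 7 were higher in the CD44-positive cells. The mean level of all 10 ran from 5.88 to 6.30 in the CD44-positive and from 5.71 to 5.77 in the CD44-negative arrays. That mean includes LUM, which was dim and had the largest difference of the 10. Among the 7 markers that were not dim, 4 were higher, with a median difference of 0.052. LUM, a matrix proteoglycan, differed by 2.02 ± 0.39, COL3A1 by 0.78 ± 0.47, ACTA2 by 0.44 ± 0.21 and COL1A2 by 0.31 ± 0.10 (SE). FAP, THY1 and PDGFRA differed by 0.16, 0.052 and 0.023. On the other side COL1A1 differed by -0.23 ± 0.11, PDGFRB by -0.13 ± 0.09 (SE) and DCN by -0.036. Between the sorts limma called none of the 10. By replicate number 1 of the 10 was called, against 3.81% of all genes. It was COL3A1, with averages of 11.12, 9.74 and 11.23. LUM, PDGFRA and FAP were dim. The part of these markers in the CXCL12 difference was not tested.

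Of the ligands of CXCR1 and CXCR2, the members CXCL1, CXCL2 and CXCL8 stayed dim in both sorts. CXCL1 ranged from 3.47 to 3.65 over the 6 arrays, and its only probe set differed by -0.014 ± 0.096 (SE). The 3 probe sets of CXCL2 differed by -0.15, -0.10 and -0.010. CXCL8, also known as interleukin 8, read 3.76, 3.61 and 3.67 in the CD44-positive and 3.39, 3.45 and 3.68 in the CD44-negative arrays on 211506_s_at, a difference of 0.17 ± 0.11 (SE) with overlapping groups. Its second probe set differed by 0.0034. All 95% intervals of these 6 probe sets included 0, and at such signals a level that is low cannot be told from none. CXCL14, a chemokine of normal epithelia, was dim on its 3 probe sets, which differed by -0.13, 0.085 and -0.13.

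CXCL16, a membrane-bound ligand of CXCR6 that proteases release, read 6.05, 5.80 and 5.71 in the CD44-positive and 5.88, 5.77 and 6.18 in the CD44-negative arrays. Its difference of -0.095 ± 0.14 (SE, 95% interval -0.41 to 0.22) came from pair 03, at -0.47, while pairs 01 and 02 stood at 0.16 and 0.025. CXCR3, the receptor of CXCL11 on T cells, read 6.23, 6.06 and 6.20 against 5.85, 6.13 and 6.32 on 217119_s_at, a difference of 0.064 ± 0.13 (SE). Its second probe set was dim and differed by -0.025. Neither gene separated the sorts.

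**Figure D3:**
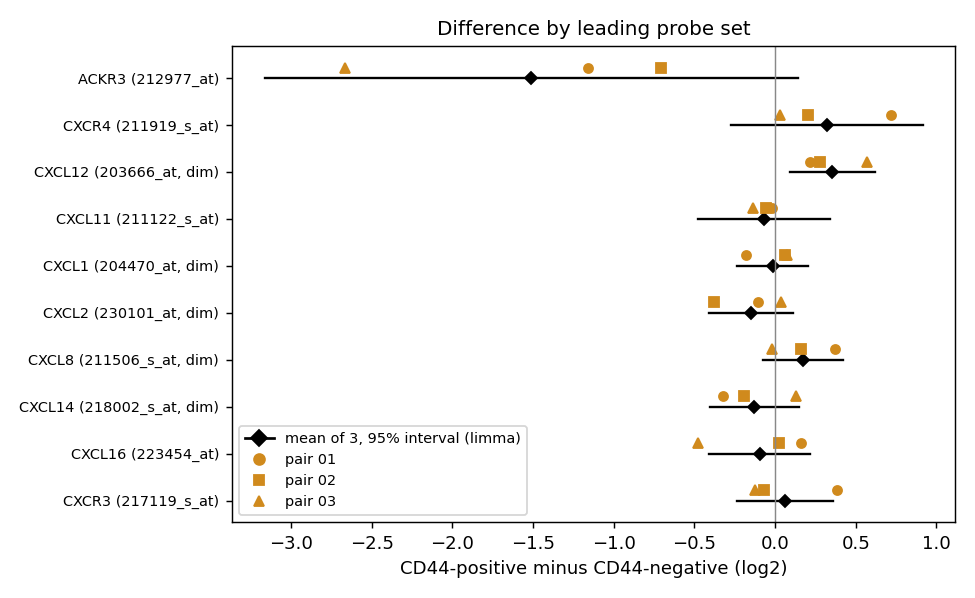
Difference between the sorts (CD44-positive minus CD44-negative, log2) for the leading probe set of each gene, with the mean of 3 pairs as a diamond, the 95% interval of limma as a line and each pair as an orange marker. The intervals are from the fit without the replicate block. Among them that of CXCL12, from 0.092 to 0.62, lies wholly on one side of 0 and that of ACKR3 is the widest, while with the block those of ACKR3 and CXCR4 also lie on one side.

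Across the members, no probe set was called by limma as higher or lower after Benjamini-Hochberg adjustment over all 54613 probe sets, where 0.00916% were called higher and 0% lower. At an unadjusted p under 0.05, limma gave 1 of the 22 members without the replicate number as a block and 4 with it, against 2.35% and 6.40% of all probe sets. With the block, still no member was called, where 0.0385% of all probe sets were called higher and 0.0128% lower. The CD44-positive arrays lay wholly above the CD44-negative arrays in 1 member (CXCL12 203666_at) and wholly below in 1 (ACKR3 1559114_a_at), against 3.41% and 3.32% of all probe sets. Of the 22, 2 were higher and 5 lower in 3 of 3 pairs, against 13.5% and 13.6%. The median difference of the 10 leading probe sets was -0.041, and that of all genes -0.00082. Since this contrast was known when the members were chosen, nothing is read from these counts.

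The replicate number was a second source of spread, and its test does not use the contrast between the sorts. limma's F-test of the number, in a fit that also held the sort, called 3 of the 22 member probe sets at an adjusted p under 0.05, against 4.16% of all probe sets. Of the 5 genes whose leading probe set was not dim it called 2, against 4.84% of all such genes, and at an unadjusted p under 0.05 it gave 7 of the 22 probe sets, against 22.6%. The called probe sets were ACKR3 212977_at and both probe sets of CXCL11. ACKR3 averaged 4.96, 6.90 and 4.73 over both sorts in numbers 01, 02 and 03 (adjusted p = 0.0294), so the arrays numbered 02 were the highest in each sort. This spread of 2.17 between the highest and lowest number was larger in size than the difference of -1.51 between the sorts. The measures are unlike, the first a range over 3 averages and the second a difference of group means. The ACKR3 call was lost with a variance trend and robust moderation (adjusted p = 0.268), and the probe set fell below the limit at the 50th percentile and was not tested there. Of the 5 neuroendocrine markers measured, 2 were called by number as well, against 3.81% of all genes: ENO2 averaged 4.40, 6.47 and 4.65, and CHGB 4.30, 4.97 and 4.33. The others were not called and spread far less than ENO2. SYP averaged 5.46, 5.45 and 5.51, lowest in number 02, CHGA 3.56, 3.63 and 3.51, and INSM1 2.89, 2.91 and 2.70. The mean level of these 5 markers ran from 4.19 to 4.74 in the CD44-positive and from 4.01 to 4.63 in the CD44-negative arrays, CHGA, CHGB and INSM1 were dim, and their part in the ACKR3 spread was not tested.

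CXCL11 followed another order of the numbers. 210163_at averaged 8.69, 8.63 and 9.22 in numbers 01, 02 and 03 (adjusted p = 0.0268) and 211122_s_at 9.39, 9.36 and 9.87 (adjusted p = 0.0427), both by limma's F-test. In both sorts array 03 was the highest and arrays 01 and 02 lay close together. The call of 211122_s_at was lost when any of the 6 arrays was left out (adjusted p from 0.0543 to 0.159). That of 210163_at was lost without CD44-positive array 03 (0.0912) and without CD44-negative array 02 (0.0541) or 03 (0.104). CXCR4 was highest in arrays 03 in both sorts on 211919_s_at, with averages of 6.36, 6.44 and 7.10, but did not pass (adjusted p = 0.0576). It passed with median centring (0.0499), without dim probe sets (0.0368), at a limit of the 50th percentile (0.0223), with 1 probe set per gene (0.0396) and with a variance trend (0.00670). It also passed when CD44-positive array 01 (0.0124) or 02 (0.0476), or CD44-negative array 01 (0.0283) or 02 (0.0430), was left out. It did not pass with quantile normalization (0.0522), or without CD44-positive array 03 (0.0569) or CD44-negative array 03 (0.217). In the planned F-test by limma the other CXCR4 probe sets did not pass, 217028_at at an adjusted p of 0.352 and 209201_x_at at 0.0929.

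Some immediate-early genes, which cells switch on within minutes of growth factor or stress signals, were also high in arrays 03. The 11 read here were chosen after their values had been seen and are given without a test. EGR1 read 5.14, 5.84 and 8.88 in the CD44-positive and 5.60, 5.18 and 9.42 in the CD44-negative arrays. FOS averaged 4.15, 4.23 and 5.59, JUN 10.11, 10.01 and 10.76, and IER2 8.83, 8.75 and 9.39 in numbers 01, 02 and 03. The averages of the other 7 spread less over the numbers, by 0.027 (DUSP1) to 0.33 (JUNB). JUNB was highest in array 03 of each sort, while the averages of ATF3 and FOSB were highest in number 03 without this holding in each sort. The averages of EGR3, IER3 and DUSP1 were highest in number 01 and that of ZFP36 in number 02. FOS and EGR3 were dim on average. The part of this pattern in the CXCL11 and CXCR4 levels was not tested, and the labels do not say what the numbers share.

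**Figure D4:**
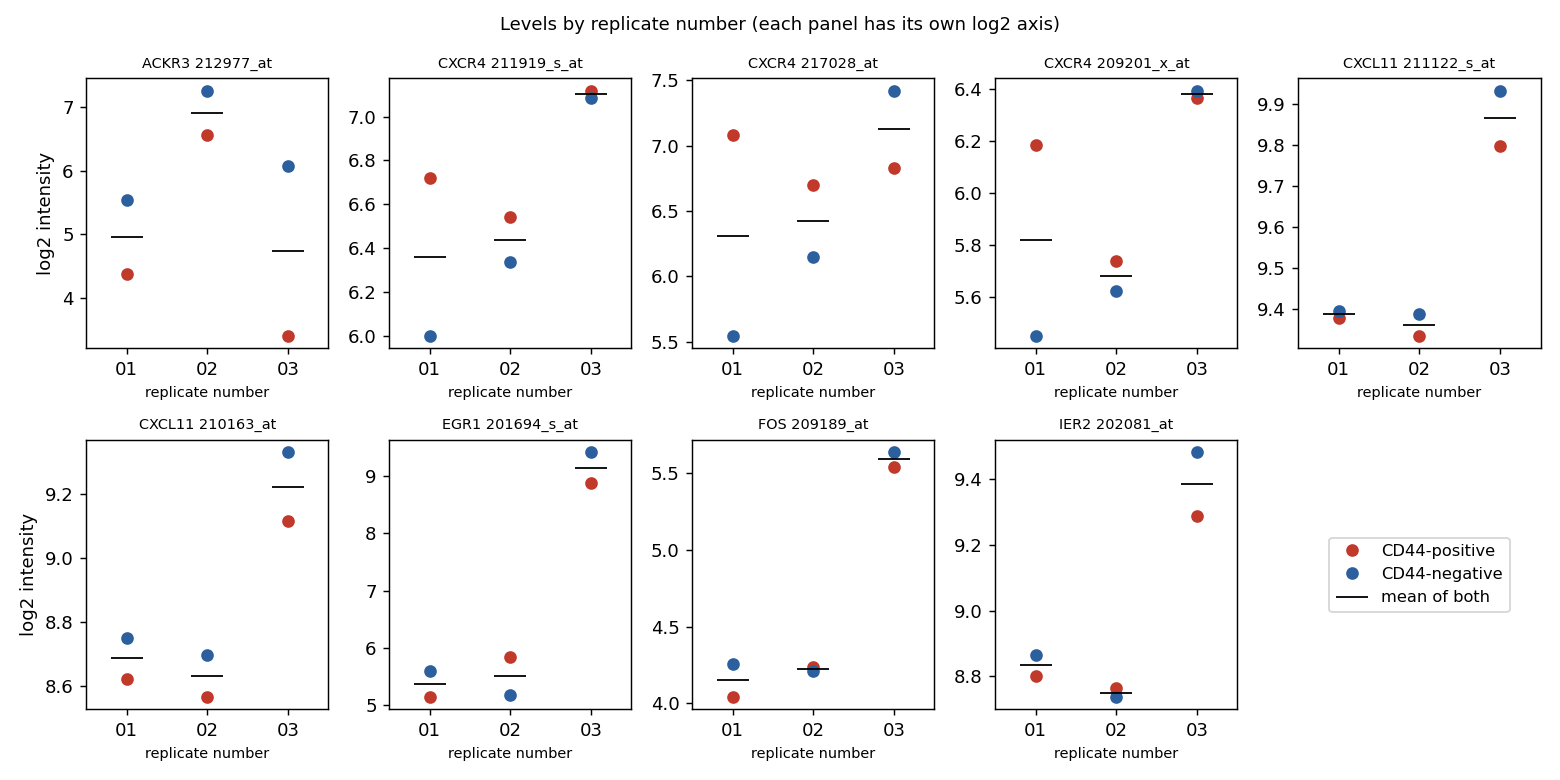
Log2 intensity by replicate number for the probe sets of ACKR3, CXCR4 and CXCL11 that were not dim and for EGR1, FOS and IER2, with CD44-positive arrays in red, CD44-negative in blue and a bar at the mean of both; each panel has its own axis. Number 02 is highest for ACKR3, at a mean of 6.90, and number 03 for the other genes shown.

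The genes whose levels ran most like those of a member were found by Pearson's r over the 6 arrays among 13841 genes that were not dim. With 6 arrays and so many genes high values arise easily, and the arrays share sort and number. For ACKR3 they were RBM18 (r = 0.984), KCNQ3, TMCO4, SEPTIN4 and TMEM86A, and 21 genes had an r over 0.95. For CXCR4 they were ZNF529 (0.988), LMO4, AFMID, CDKN2AIP and CUL4B. For CXCL11 they were U2AF2 (0.997), FAM81A, ZNF33B, DUSP12 and IER2 (0.991), with 127 genes over 0.95. CXCL16 ran most like RBBP4 (0.995) and CXCR3 most like COX10-DT (0.982).

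The rest of the pathway was read from lists of genes that are no members. Of 116 listed genes 108 were measured, and limma called 0 of them higher and 0 lower, with or without the block. In simulated data it called 1.49% of changes of 0.5 log2 without and 0% with the block. A lack of calls therefore does not show a lack of differences of that size. At an unadjusted p under 0.05 there were 2 without and 10 with the block, against 2.19% and 5.99% of all genes, and the median difference of the 108 was 0.0059. By replicate number 2 were called, ADM and NFKBIZ, against 3.81% of all genes.

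The other CXC ligands were mostly dim. Of 10, only CXCL3 and PF4 were not, and CXCL9 and CXCL10, which interferon induces together with CXCL11, were both dim, with 4.59 to 5.32 and 4.37 to 4.90 over the arrays. The list's median difference was -0.022, with CXCL5 at -0.12 and PF4 at -0.061 on one side and PF4V1 at 0.12 and CXCL3 at 0.064 on the other. Of the 8 other receptors 3 had positive differences and the median was -0.057, with CXCR5 at -0.16, ACKR2, a scavenger of CC chemokines, at -0.13, CCRL2 at 0.13 and CXCR2 at 0.093. ACKR2, CCRL2 and CXCR2 were dim. Of the 17 CC and other chemokines measured 12 had positive differences and the median was 0.013, with CCL17 at 0.18, CCL25 at 0.11, CCL26 at -0.077 and CCL2 at -0.065. CCL25 and CCL26 were dim.

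Other ligands and partners of CXCR4 and ACKR3 had a median of -0.0060 over 12 genes. ADM, the peptide adrenomedullin that ACKR3 also scavenges, was dim on average. It read 4.36, 5.69 and 4.80 in the CD44-positive and 4.29, 4.86 and 4.41 in the CD44-negative arrays, a difference of 0.43 ± 0.30 (SE, adjusted p = 1.00 by limma). The CD44-positive array was the higher in each pair, and number 02 was the highest in each sort (adjusted p = 0.0382 by limma's F-test). SDC4, a heparan sulphate proteoglycan, differed by 0.24, TFF2, a mucosal peptide, by -0.24 and CALCRL, part of the adrenomedullin receptor, by -0.24. CALCRL was dim. Of 27 genes of receptor signalling and desensitisation 17 had positive differences, with a median of 0.062. STAT3 differed by 0.22, the receptor kinases GRK3 by 0.21 and GRK5 by -0.12, and the small GTPase RAC2, which was dim, by -0.25.

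The factors known to drive these chemokines were read as well. NFKBIZ, an inducible nuclear regulator of NF-kappaB targets, read 6.78, 6.93 and 7.46 in the CD44-positive and 6.20, 6.46 and 6.97 in the CD44-negative arrays. It was higher by 0.58, 0.47 and 0.49 in the pairs, a difference of 0.51 ± 0.23 (SE, adjusted p = 1.00 by limma, 0.156 with the block). Number 03 was its highest in both sorts (adjusted p = 0.0174 by limma's F-test). The 18 genes of the NF-kappaB list had a median of -0.0044, with TNFAIP2 at 0.23, LIF at -0.16 and REL at -0.16. TNFAIP2 and LIF were dim. In the interferon gamma list of 8 genes, with a median of 0.027, the transcription factor IRF1 read 6.48, 6.50 and 6.47 against 6.02, 6.34 and 6.07, without overlap. Its difference was 0.34 ± 0.11 (SE, adjusted p = 1.00 by limma, 0.554 with the block). The kinase JAK1 stood at 0.30, IRF9 at -0.063 and IFNGR2 at -0.027. The 8 proteases that release or trim chemokines had a median of -0.0049, from MMP3 at -0.12 and MMP9 at -0.060 to MMP1 at 0.11 and MMP14 at 0.12. MMP1 and MMP3 were dim.

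**Figure D5:**
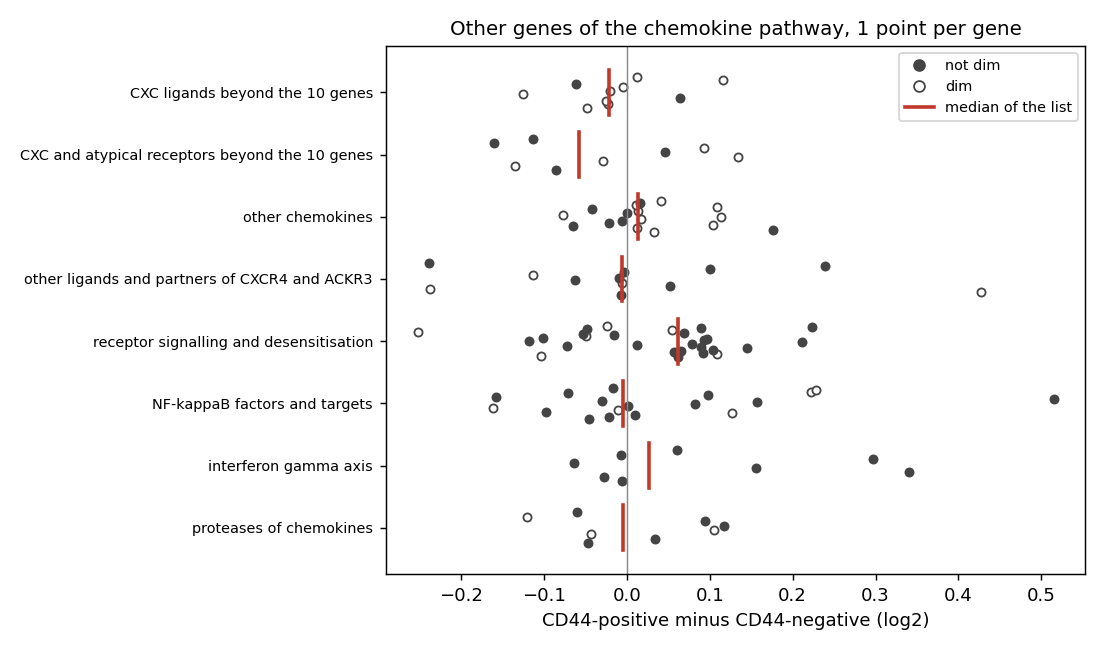
Difference between the sorts (CD44-positive minus CD44-negative, log2) of the other genes of the chemokine pathway, 1 point per gene by list, filled where the gene was not dim, with the list's median in red. The medians lie between -0.057 and 0.062, and NFKBIZ at 0.51 and ADM at 0.43 lie farthest to the right.

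Markers of blood and vessel cells gave no call either. Of the 9 leukocyte markers measured 4 had positive differences, with a median of -0.019 and a mean level of 5.03 to 5.06 against 5.02 to 5.10. CD14, LYZ, CD2, MS4A1 and NKG7 were dim, while PTPRC, at 7.07 to 7.38 over the arrays, CD3E, ITGAM and CSF1R were not. The 7 endothelial markers had a median of 0.011, with mean levels of 4.76 to 4.98 against 4.82 to 4.87, and CDH5, KDR and EMCN were dim.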

How the data were processed

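Total RNA from sorted COLO-320DM cells was hybridised to 6 Affymetrix arrays, grouped by labelled CD44 status. The deposited intensity values had been through RMA, per the submitters' processing notes, with no version known here. The values were linear, so log2 was taken with no pseudocount. RMA includes quantile normalization and compresses differences near the background.

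Of 54675 probe sets 62 controls were left out. Platform annotation gave 1 gene for 41091 of the rest and several for 1801, and 41037 of the first were matched to RefSeq by gene ID. The leading probe set of a gene was that with the highest mean. All probe sets entered limma 3.58.1 (lmFit and eBayes, R 4.3.3), without a block. Tests were two-sided, p-values were adjusted by Benjamini-Hochberg over all probe sets, and the threshold was 0.05. The fit was tested on simulated data, with changes given to probe sets that were not dim. Of changes of 0.5 log2 between the sorts, it called 1.49% without and 0% with the block. Of changes of 1 log2 it called 62.7% and 71.6%, and of changes of 2 log2, 95.5% and 93.9%. The test of the replicate number called 1.49% of changes of 1 log2 in number 03 and 65.2% of those of 2 log2. That simulation held no other replicate effect, whereas the test called 2272 probe sets in the real arrays. Its adjustment was therefore stricter, and these shares do not give the sensitivity of the test in the real arrays. Arrays of the same number deviated together from their group means (correlations of 0.517, 0.674 and 0.666), and the numbers were taken as pairs from the data. Alternatives were the block, other normalizations, dim filters, 1 probe set per gene, a variance trend, array weights and leaving out arrays. Tables and figures were made with Python 3.11.15, pandas 2.3.3 and matplotlib 3.10.9. Genes of the pathway lists were named where called, or else the 2 highest and 2 lowest differences of each, and markers as the text needed them. The members, lists and tests were chosen with earlier results of these data known, and the immediate-early genes and ART3 after their values were seen.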

Additional observations from a re-analysis of the deposited data

How the results depend on the processing

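The count of probe sets that differed between the sorts was 5 as planned and 28 with the replicate block, 1 without dim probe sets, and 0 with a limit at the 50th percentile, with 1 leading probe set per gene and with a variance trend. Leaving out each array in turn gave 0 to 10: 0, 1 and 8 without CD44-positive arrays 01, 02 and 03, and 1, 10 and 0 without the CD44-negative ones. With the block it was 25, 87 and 85 without pairs 01, 02 and 03, an alternative chosen after seeing the data. The count by replicate number was 2272, and 3802 without dim probe sets, 4705 at the 50th percentile, 1430 with 1 leading probe set per gene, 6756 with a variance trend and 1064 (without CD44-positive array 03) to 2674 without each array, the last also chosen after seeing the data. No listed pathway gene was called between the sorts in any of these fits. Of the members, ACKR3 212977_at alone was called between the sorts, with the block and without pair 02 or pair 03. Like the other member counts, this is a description and supports nothing. The differences of the 10 leading probe sets were read in 5 other settings, which gave 47 values. The settings were median centring, quantile normalization, the block, the mean of all probe sets, and no probe sets with the suffixes _s_at or _x_at. All 47 moved by less than the pooled SD within the sorts, a wide margin for ACKR3, which counted as unmoved at -0.68. The block leaves every difference as it is in a balanced design, so its values could not move. The 60 values with an array left out could not exceed that SD either, because each sort has 3 arrays. Among these 60, ACKR3 ran from -2.40 to -0.82. The sign changed for CXCL1 and CXCL11 in 2 each and for CXCL16 and CXCR3 in 1 each. Most member probe sets were dim, which limits what could be seen of CXCL1, CXCL2, CXCL8, CXCL12 and CXCL14.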
